A study of Mus musculus with 103 samples.

Results

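The elastic fibre genes were 10 genes of the RNA-seq table, taken by symbol: Eln, Fbn1, Fbn2, Mfap2, Mfap4, Mfap5, Fbln1, Fbln5, Lox and Loxl1. They were 10 of the 23339 RefSeq genes with a value in mouse embryonic fibroblasts (MEFs). The members were chosen by gene name, with earlier results of these data known. All 10 passed the filter on low values (2 or more libraries with an RPKM of 1 or above), as did 12604 genes in all.

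Elastic fibres give skin, lung and arteries their recoil. They form when tropoelastin, the soluble product of Eln, is laid down on microfibrils, which are bundles of the large glycoproteins fibrillin-1 (Fbn1) and fibrillin-2 (Fbn2). The microfibril-associated proteins Mfap2, Mfap4 and Mfap5 decorate or bind these bundles, and fibulin-5 (Fbln5) helps to bring elastin and the cross-linking enzymes to them. Fibulin-1 (Fbln1) is found within the elastin core of fibres. The copper enzymes lysyl oxidase (Lox) and lysyl oxidase-like 1 (Loxl1) oxidise lysines of elastin, and Lox also those of fibrillar collagen, which makes the fibre insoluble. Fibroblasts are among the cells that make all of these parts.

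Of the 103 samples of the series, 29 were RNA-seq libraries of polyadenylated RNA and 10 were GRO-seq libraries, in which engaged polymerases extend their transcripts in isolated nuclei with a bromouridine analog. The other 64 samples, ChIP-seq, were not analysed here. All cells were C57BL/6 MEFs from E13.5 embryos that were held quiescent and rested for 10 d, in every group used here. Wild-type cells (clones 2 and 3) were untreated or exposed to an adenovirus expressing Cre recombinase (Adeno-Cre) for 4 h. Cells with Rosa26(CreER/+) and no floxed gene (clones 2 and 3) were untreated or given 4-hydroxytamoxifen for 2 to 3 d, which activates the Cre-ER recombinase made from the Rosa26 locus. Ctcf(fl/fl) cells (clones 1 and 2) were untreated or given Adeno-Cre, which deletes the gene of the insulator protein CTCF. Rosa26(CreER/+) Smc3 floxed cells, Smc3(fl/fl) in clone 1 and Smc3(fl/-) in clones 2 to 4, were untreated or given hydroxytamoxifen to delete the cohesin subunit Smc3. Rosa26(CreER/+) Wapl(fl/-) cells (clones 1 and 2) were handled in the same way to delete the cohesin release factor Wapl, so that their untreated cells already lacked 1 Wapl allele. In RNA-seq, Ctcf(fl/fl) Wapl(fl/fl) cells were untreated (clones 3 and 4) or given Adeno-Cre. Treated clone 4 is in the table of 27 libraries and treated clone 3 in a second table of 2 libraries. GRO-seq of this genotype used clones 1 and 2, untreated or given Adeno-Cre. Further GRO-seq libraries, with no clone named, were given Adeno-Cre and the transcription blocker DRB for 3.5 h. They were taken with DRB or after 1 d without it, 1 library each. Wild-type and Cre-ER GRO-seq used clone 1 of each. Each replicate is a clone as the labels name it, and the labels give no separate embryos, so p-values measure the spread between these libraries.

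Sequence upstream of the transcription start was at hand for 4 of the 10 members, Fbn1, Mfap2, Fbln1 and Fbln5, and is shown for these. A link between these sequences and the response to the deletions was not tested. Each line gives 200 bases before the most upstream RefSeq start (build GRCm38.p6), 5′ to 3′ on the strand of the gene. Capitals mark a match on either strand to the GC box GGGCGG, to the letters CCAAT, or to the E-box CACGTG.
Fbn1, chr2:125506486-125506685, minus strand: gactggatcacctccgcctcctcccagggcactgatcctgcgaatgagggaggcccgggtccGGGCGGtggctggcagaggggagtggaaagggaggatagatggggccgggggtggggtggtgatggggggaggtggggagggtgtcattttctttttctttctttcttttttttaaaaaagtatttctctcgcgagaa
Mfap2, chr4:141010224-141010423, plus strand: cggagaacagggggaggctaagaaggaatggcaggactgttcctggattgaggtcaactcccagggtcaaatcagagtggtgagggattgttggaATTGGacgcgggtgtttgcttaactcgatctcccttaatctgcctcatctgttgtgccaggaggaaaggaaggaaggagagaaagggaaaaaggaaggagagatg
Fbln1, chr15:85205749-85205948, plus strand: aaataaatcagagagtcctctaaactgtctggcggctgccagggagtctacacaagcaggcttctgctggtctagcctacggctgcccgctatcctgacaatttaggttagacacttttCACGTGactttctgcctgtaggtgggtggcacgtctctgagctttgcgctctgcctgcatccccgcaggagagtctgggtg
Fbln5, chr12:101819120-101819319, minus strand: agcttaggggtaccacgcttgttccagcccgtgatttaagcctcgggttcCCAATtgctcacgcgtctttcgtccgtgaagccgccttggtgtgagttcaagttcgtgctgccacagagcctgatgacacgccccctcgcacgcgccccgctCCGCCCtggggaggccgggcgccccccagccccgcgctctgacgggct
The Fbn1 window held 1 GC box, which began 138 bases before the start, and the Mfap2 window held 1 CCAAT box at 105 bases. The Fbln1 window held 1 E-box at 81 bases. The Fbln5 window held a GC box at 48 bases and a CCAAT box at 150 bases. The TATA box (TATAAA), the AP-1 site (TGANTCA) and a CTCF-like core were also searched on both strands and had no match in these 4 windows. Of 32851 promoter windows of the same length, 31.0% held a GC box, 29.3% a CCAAT box, 5.26% an E-box, 9.96% a TATA box, 5.48% an AP-1 site and 1.77% the CTCF-like core. GC content was 57.5% for Fbn1, 51.0% for Mfap2, 54.5% for Fbln1 and 66.5% for Fbln5, against a median of 53.0% over all windows.

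The 27 libraries held 8467390 to 41070352 reads in genes, and the members between 385 reads (Mfap5) and 360806 reads (Lox) in a library, so that counting error was small for all of them. Ctcf mRNA fell in the Ctcf floxed cells given Adeno-Cre (log2 fold change -1.38, limma with Benjamini-Hochberg adjustment, adjusted p = 1.69e-06). In the treated clone 4 of the Ctcf and Wapl floxed cells, Ctcf fell (adjusted p = 2.21e-05) and so did Wapal, the gene of Wapl (adjusted p = 0.0275). In the Wapl floxed cells Wapal stood at 1.80 and 1.48 RPKM untreated and at 0.780 and 0.914 RPKM after hydroxytamoxifen (adjusted p = 0.167). Hydroxytamoxifen treated Smc3 floxed libraries had no less Smc3 mRNA, 10.9 to 13.2 RPKM against 7.62 to 10.5 RPKM untreated (adjusted p = 0.119). A deletion of part of a gene need not lower its RPKM, so every direction given for Smc3 deletion rests on the label.

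In quiescent wild-type cells the cross-linking enzymes stood at the top of the group, ahead of Eln and Mfap4. RPKM is a value per length, so levels can be set beside each other. Lox was at 1705 and 1512 RPKM in clones 2 and 3, rank 16 of all 23339 genes by mean. Loxl1 followed at 443 and 421 RPKM, Eln at 391 and 233 RPKM and Mfap4 at 355 and 237 RPKM, with Loxl1 at rank 112, Eln at 163 and Mfap4 at 174. The libraries of Eln and Mfap4 overlapped, whereas those of Lox lay above all others. Mfap2 (164 and 147 RPKM), Fbn1 (148 and 121 RPKM) and Fbln5 (125 and 118 RPKM) formed the middle of the order, and neighbours among these 3 overlapped. Mfap5 was at 64.9 and 53.5 RPKM and overlapped with Fbln1 at 40.8 and 60.8 RPKM. Fbn2, the fibrillin that is known for its prominence in embryonic tissue, was the lowest at 32.6 and 31.0 RPKM, at rank 2327.

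Nascent RNA of wild-type cells also put Lox first. In the authors' wild-type GRO-seq column, a pool that sums to 200000 TPM, Lox was at 206 TPM, Mfap4 at 38.4 TPM and Loxl1 at 27.01 TPM. These 3 also led the authors' RPKM column beside it, which is the mean of the 4 untreated wild-type and Cre-ER RNA libraries, with 1593 RPKM for Lox, 879 RPKM for Mfap4 and 406 RPKM for Loxl1. Fbln1 was the lowest of the 10 in both columns, at 1.81 TPM and 53.0 RPKM. Which wild-type GRO-seq libraries were pooled is not stated in the sources used here.

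Untreated libraries differed widely before Adeno-Cre or hydroxytamoxifen, also between clones of the same genotype. Mfap4 ranged over the 14 untreated libraries from 159 RPKM (Ctcf and Wapl floxed clone 4) to 1908 RPKM (Wapl floxed clone 2). The other untreated clones of these genotypes stood at 672 RPKM (Ctcf and Wapl floxed clone 3) and 573 RPKM (Wapl floxed clone 1). Eln ranged from 108 RPKM in Wapl floxed clone 1, against 445 RPKM in clone 2, to 1073 RPKM in Smc3 floxed clone 4. Fbn1 varied least, from 110 to 199 RPKM. The plot of RPKM by library shows that this spread between clones was as large as many of the differences that followed treatment.

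**Figure D1:**
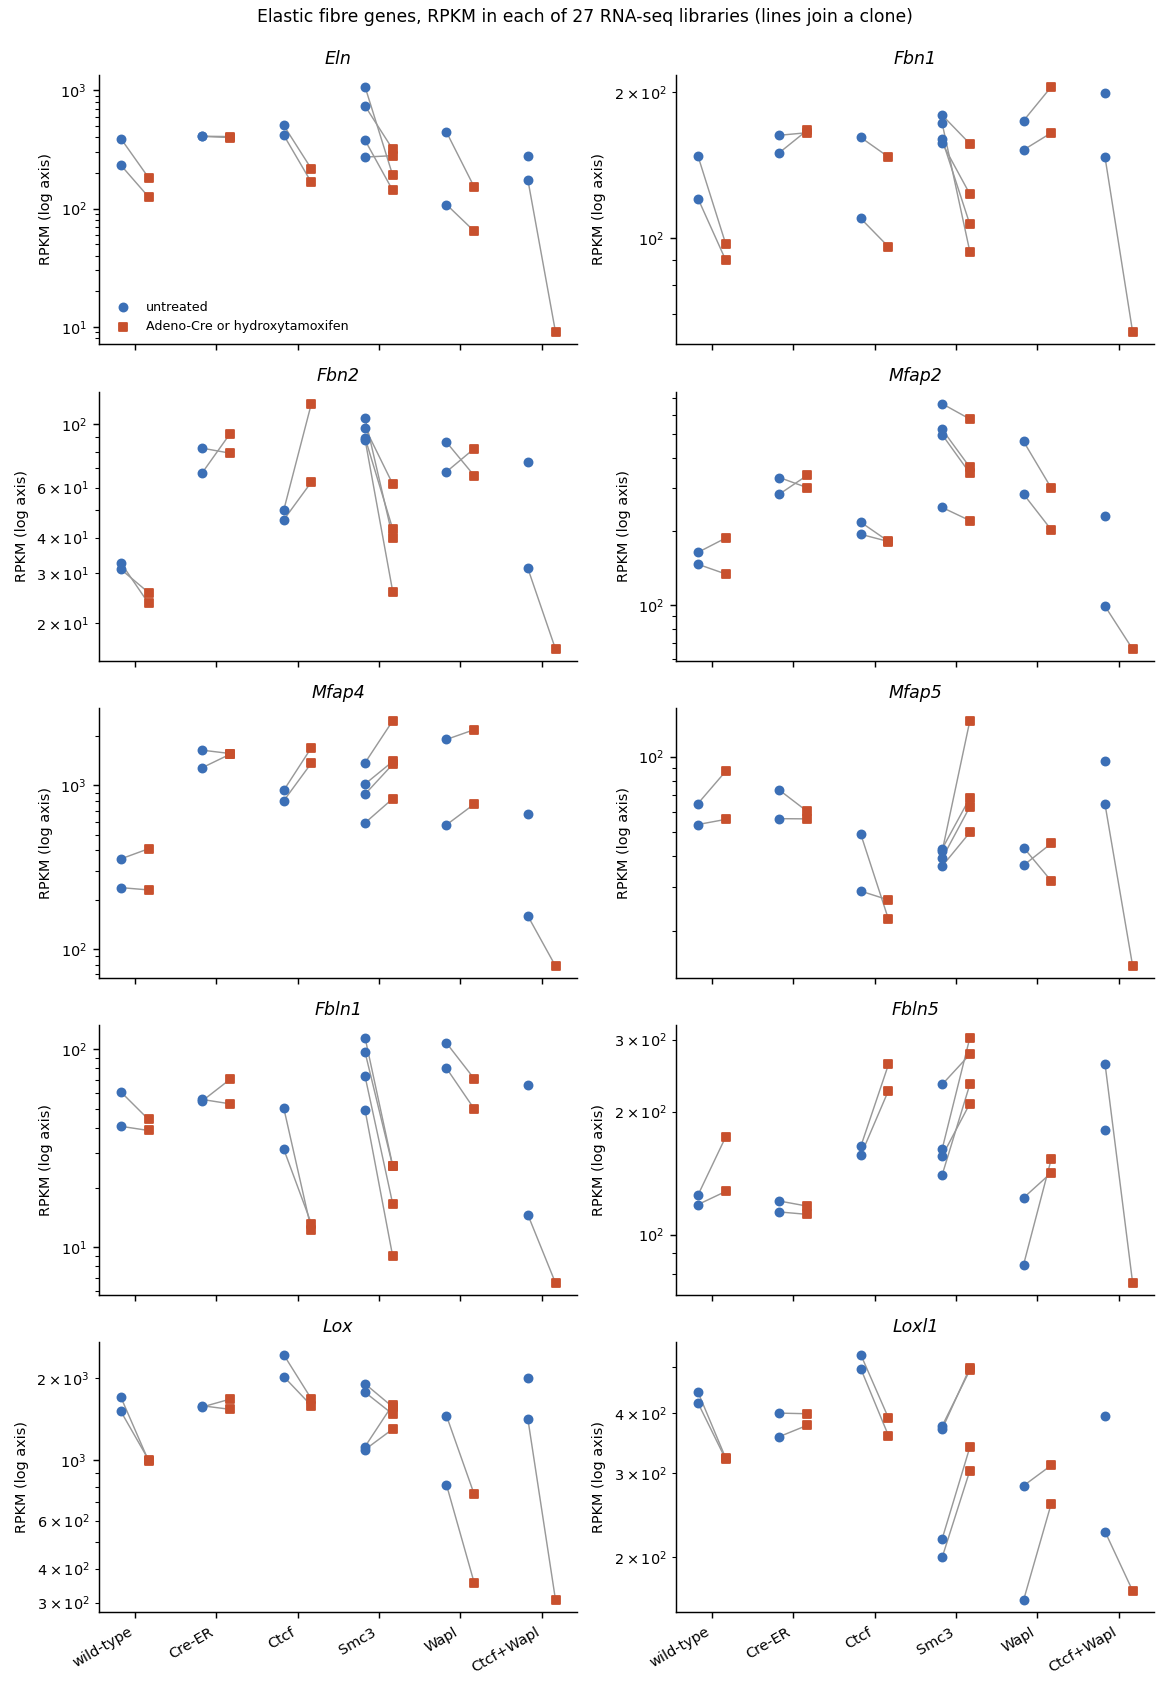
RPKM (log axis, a separate range in each panel) of each elastic fibre gene in 27 RNA-seq libraries, grouped by genotype along the horizontal axis. Blue circles are untreated libraries, red squares are libraries given Adeno-Cre or hydroxytamoxifen, and lines join the libraries of a clone. Eln in the single treated library of Ctcf and Wapl floxed cells sits at 9.02 RPKM, below all other Eln values.

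Most of the elastic fibre genes fell with Ctcf and Wapl deleted together, and 5 changed after Smc3 deletion, in both directions. After deletion of Ctcf or Wapl alone none passed the threshold in the fit without clones (limma). With Ctcf and Wapl deleted, 7 of 10 members fell and 0 rose, against 5.34% of all genes tested that fell and 10.5% that rose. The treated group there is 1 library, which the fit assumes to vary like the other groups, and a fit over those 3 libraries alone called 0 members and 0 genes in all. With Smc3 deleted, 3 members fell (Fbn1, Fbn2 and Fbln1) and 2 rose (Mfap5 and Fbln5), against 5.6% and 9.37% of all genes. After Ctcf deletion 0 members passed in either direction, against 5.04% of all genes higher and 2.63% lower. After Wapl deletion the count was also 0, against 1.5% higher and 0.928% lower. In bulk RNA, fewer cells of a type and less RNA per cell cannot be told apart, and this holds for every difference below.

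Of the 2 controls, Adeno-Cre in wild-type cells called 0 members, against 2.7% of all genes higher and 0.54% lower. Hydroxytamoxifen in Cre-ER cells called 0 members and 0% of all genes in both directions, with 0 members and 0.325% of all genes at an unadjusted p under 0.05. The number of members at an unadjusted p under 0.05 was 3 of 10 after Ctcf deletion (19.8% of all genes), 2 after Wapl deletion (14.7%) and 2 after Adeno-Cre in wild-type cells (18.5%), so these counts were near the share over all genes. The median log2 fold change of the 10 members was -1.78 with Ctcf and Wapl deleted, -0.31 after Ctcf deletion, -0.15 after Smc3 deletion, -0.07 after Wapl deletion, -0.31 after Adeno-Cre in wild-type cells and 0.05 after hydroxytamoxifen in Cre-ER cells. The median of all genes tested was 0.17 with Ctcf and Wapl deleted and between -0.01 and 0.07 in the other 5 comparisons. With libraries rescaled by median-of-ratios size factors the first of these became -0.00, the members' median was also lower and the same 7 members fell.

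Rescaling altered the balance of calls over all genes. After deletion of Ctcf and Wapl it was 1324 higher and 673 lower as deposited, and 685 higher and 924 lower when rescaled. The balance went from 635 higher and 331 lower to 521 and 418 after Ctcf deletion, and from 340 and 68 to 194 and 83 after Adeno-Cre in wild-type cells. The members' calls after Smc3 deletion lost Fbn1 (adjusted p = 0.055) under this rescaling and kept the other 4.

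Treated and untreated libraries of a clone deviated together from their group means, so the fit was repeated with clone as a blocking term. The block also called more of all genes in each comparison other than Cre-ER. After Ctcf deletion it called 5 of 10 members (3 higher, 2 lower), against 25% of all genes. After Smc3 deletion it called 9 members (4 higher, 5 lower) against 36.6%, and after Wapl deletion 4 (1 higher, 3 lower) against 14.6%. In the doubly deleted cells 8 members were lower, against 8.17% of all genes lower. After Adeno-Cre in wild-type cells 3 members were lower, against 7.24% of all genes lower, and after hydroxytamoxifen in Cre-ER cells 0 members and 0% of genes were called. The values with the clone block are given beside each member whose call they change.

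**Figure D2:**
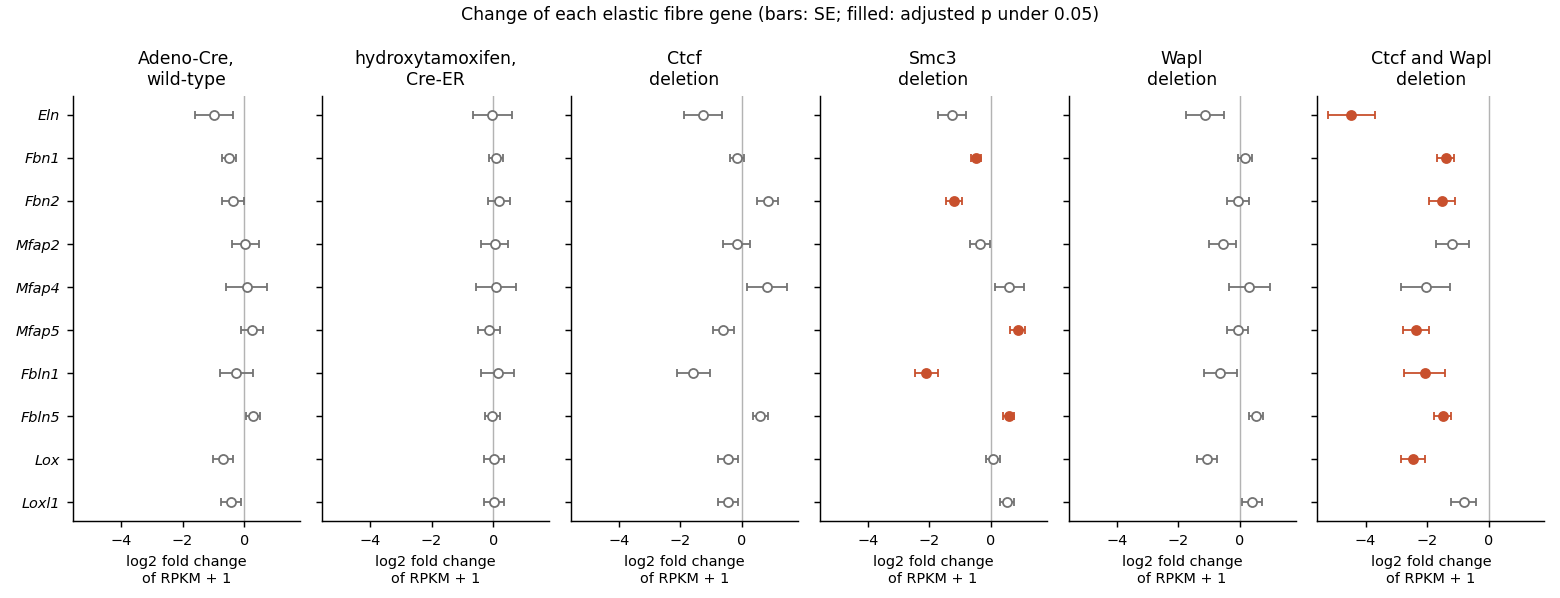
Log2 fold change of RPKM + 1 (horizontal axis) of each elastic fibre gene in the 6 comparisons, without the clone block. Points are estimates, bars are standard errors, and filled points passed an adjusted p of 0.05; 7 filled points lie left of 0 after Ctcf and Wapl deletion, and 3 left and 2 right of 0 after Smc3 deletion.

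Elastin had the widest drop of the 10. With Ctcf and Wapl deleted, Eln went from 276 and 175 RPKM in the untreated clones 3 and 4 to 9.02 RPKM in the treated clone 4. The treated library lay far below both untreated ones (log2 fold change -4.46 with SE 0.77, adjusted p = 0.000692, limma), and its RPKM was 25.03-fold below their mean. Eln was lower in each clone after Ctcf deletion as well, at 419 and 507 RPKM untreated and 167 and 217 RPKM treated in clones 1 and 2. The groups did not overlap, but the difference did not pass the test (log2 fold change -1.27 with SE 0.63, adjusted p = 0.272, limma).

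In Smc3 floxed cells, untreated Eln was 273, 738, 379 and 1073 RPKM in clones 1 to 4. After hydroxytamoxifen it was 281, 318, 143 and 191 RPKM. It was lower in 3 of 4 clones, and clone 1 was level (log2 fold change -1.27 with SE 0.44, adjusted p = 0.0628, limma; adjusted p = 0.0111 with the clone block). After Wapl deletion Eln went from 108 and 445 to 64.6 and 153 RPKM, lower in both clones, while the 2 untreated clones differed from each other by more than either did from its treated library (log2 fold change -1.14 with SE 0.63, adjusted p = 0.434, limma). Wild-type cells given Adeno-Cre also had lower Eln in both clones, 391 and 233 RPKM untreated against 183 and 126 RPKM (log2 fold change -0.99 with SE 0.63, adjusted p = 0.432, limma). Cre-ER cells were level at 409 and 409.8 RPKM untreated and 399 and 407 RPKM with hydroxytamoxifen.

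The fibrillins fell after Smc3 deletion and with Ctcf and Wapl deleted. Fbn2 was 97.3, 105, 89.7 and 88.4 RPKM in untreated Smc3 floxed clones 1 to 4 and 61.7, 40.1, 42.9 and 25.9 RPKM after hydroxytamoxifen. All 4 clones were lower and the groups did not overlap (log2 fold change -1.20 with SE 0.25, adjusted p = 0.00283, limma). This call held under all 18 alternatives tried. Fbn1 was 179, 157, 172 and 159.6 RPKM in the same untreated clones and 156, 123, 93.8 and 107 RPKM treated, again lower in 4 of 4 clones. The groups just failed to overlap, with the highest treated and the lowest untreated library side by side. Its fall was smaller and close to the threshold (log2 fold change -0.50 with SE 0.16, adjusted p = 0.0494, limma; adjusted p = 0.00253 with the clone block). It passed in 6 of the 18 alternatives, and leaving out single libraries other than the treated clone 1 raised its adjusted p to between 0.068 and 0.168.

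With Ctcf and Wapl deleted, Fbn1 went from 199 and 147 RPKM to 64.1 RPKM (log2 fold change -1.40 with SE 0.29, adjusted p = 0.00257, limma). Fbn2 went from 73.7 and 31.2 RPKM in clones 3 and 4 to 16.2 RPKM in treated clone 4 (log2 fold change -1.51 with SE 0.43, adjusted p = 0.0226, limma). Within clone 4 the Fbn2 difference was -0.90 on the log2 scale and did not pass (adjusted p = 0.119, limma), and without the untreated clone 3 its adjusted p was 0.226. The fall of Fbn2 in that comparison thus rested on the untreated library of clone 3.

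Ctcf deletion alone left the fibrillins pointing in different directions. Fbn2 was 49.9 and 46.2 RPKM untreated and 118 and 62.7 RPKM after Adeno-Cre in clones 1 and 2, higher in both clones without overlap (log2 fold change 0.83 with SE 0.35, adjusted p = 0.177, limma; adjusted p = 0.047 with the clone block). Fbn1 was 161 and 109.8 RPKM untreated and 147 and 96.0 RPKM treated, and the groups overlapped (log2 fold change -0.16). After Wapl deletion Fbn1 was 205 and 165 RPKM against 175 and 152 RPKM untreated, and Fbn2 was 82.1 and 66.1 against 68.1 and 86.6 RPKM. Both overlapped between the groups. In wild-type cells Adeno-Cre went with lower Fbn1 in both clones, 97.4 and 90.2 RPKM against 148 and 121 RPKM untreated, which passed only with the clone block (log2 fold change -0.50, adjusted p = 0.254 and 0.0225, limma). Wild-type Fbn2 was 32.6 and 31.0 RPKM untreated and 23.5 and 25.7 RPKM treated (log2 fold change -0.36).

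Of the microfibril-associated genes, Mfap5 rose after Smc3 deletion and fell with Ctcf and Wapl deleted. Mfap5 encodes a small glycoprotein that binds fibrillins. In Smc3 floxed cells it was 41.8, 36.4, 39.2 and 42.8 RPKM untreated and 139, 49.7, 63.0 and 68.4 RPKM after hydroxytamoxifen in clones 1 to 4. All 4 clones were higher and the groups did not overlap, with clone 1 far above the other treated clones (log2 fold change 0.87 with SE 0.25, adjusted p = 0.0229, limma). The adjusted p was 0.0586 without that treated library and 0.0612 without the untreated library of clone 2. With Ctcf and Wapl deleted Mfap5 went from 96.5 and 64.5 RPKM to 14.5 RPKM (log2 fold change -2.37 with SE 0.43, adjusted p = 0.00104, limma). It was 48.9 and 28.9 RPKM untreated and 22.3 and 26.7 RPKM after Ctcf deletion, and the groups did not overlap. Before Wapl deletion it was 36.7 and 43.2 RPKM and after it 44.9 and 31.8 RPKM. Neither difference passed.

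Mfap4 was higher after each single deletion in every clone and lower in the cells with both Ctcf and Wapl deleted, but none of these differences passed in the fit over all libraries without the clone block. Mfap4 binds elastin and fibrillin-1. Ctcf floxed cells had 803 and 929.9 RPKM untreated and 1366 and 1698 RPKM after Adeno-Cre (log2 fold change 0.82 with SE 0.66, adjusted p = 0.567, limma; adjusted p = 0.0013 with the clone block). Smc3 floxed cells had 589, 1018, 883 and 1374 RPKM untreated and 829, 1399, 1345 and 2483 RPKM after hydroxytamoxifen. All 4 clones were higher but stood at different levels before treatment, and the groups overlapped (log2 fold change 0.60 with SE 0.46, adjusted p = 0.44, limma; adjusted p = 0.00064 with the clone block). Wapl floxed cells had 573 and 1908 RPKM untreated and 767 and 2189 RPKM treated (log2 fold change 0.31, adjusted p = 0.925, limma). In Ctcf and Wapl floxed cells Mfap4 was 672 and 159 RPKM untreated and 78.3 RPKM in treated clone 4 (log2 fold change -2.05 with SE 0.80, adjusted p = 0.0955, limma). Within clone 4 the difference was -1.01 on the log2 scale (adjusted p = 0.00329). Without the untreated library of clone 4, which was the lower of the 2, it was -3.08 and passed (adjusted p = 0.0117, limma).

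Mfap2, which encodes the small microfibril protein also called MAGP-1, did not pass in any comparison fitted over all libraries without the clone block. It was 497, 665, 250.3 and 522 RPKM in untreated Smc3 floxed clones and 346, 576, 221 and 365 RPKM in treated ones, lower in 4 of 4 clones with overlap (log2 fold change -0.35, adjusted p = 0.51 and 0.0127 with the clone block, limma). In Wapl floxed cells it was 284 and 466 RPKM untreated and 203 and 300.5 RPKM treated (log2 fold change -0.56, adjusted p = 0.651 and 0.0187 with the block, limma). In the Ctcf and Wapl floxed cells it was 232 and 98.8 RPKM untreated and 65.9 RPKM treated (log2 fold change -1.19, adjusted p = 0.151, and -0.58 with adjusted p = 0.0455 within clone 4, limma). Without the untreated library of clone 4 it passed, at -1.80 (adjusted p = 0.03, limma). Ctcf floxed cells had 218 and 194 RPKM untreated and 182 and 182 RPKM treated. In wild-type and Cre-ER controls the log2 fold changes of Mfap2, Mfap4 and Mfap5 lay between -0.14 and 0.25.

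The 2 fibulins moved apart after Smc3 deletion. Fbln1 fell from 114, 72.9, 96.5 and 49.2 RPKM in untreated clones 1 to 4 to 25.7, 16.5, 25.6 and 8.98 RPKM after hydroxytamoxifen, lower in 4 of 4 clones without overlap (log2 fold change -2.10 with SE 0.38, adjusted p = 0.00118, limma). It was the largest fall of a member in that comparison and was called under all 18 alternatives. Fbln5 rose from 140.1, 156, 162 and 233 RPKM to 233, 209, 303 and 276 RPKM in the same clones, higher in 4 of 4 although the groups overlapped (log2 fold change 0.57 with SE 0.17, adjusted p = 0.0254, limma). The Fbln5 call was lost without the untreated library of clone 1 (adjusted p = 0.0842) or clone 2 (adjusted p = 0.0709), and without the treated library of clone 3 (adjusted p = 0.0942) or clone 4 (adjusted p = 0.078).

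The same split of the fibulins appeared in both clones after Ctcf deletion without passing the threshold. Fbln1 was 50.6 and 31.3 RPKM untreated and 12.3 and 13.1 RPKM after Adeno-Cre (log2 fold change -1.58 with SE 0.54, adjusted p = 0.0884, limma; adjusted p = 0.0002 with the clone block). Fbln5 was 164 and 156 RPKM untreated and 261 and 225 RPKM treated (log2 fold change 0.59 with SE 0.24, adjusted p = 0.151, limma; adjusted p = 0.031 with the block). After Wapl deletion Fbln1 was 71.0 and 49.98 RPKM against 107 and 80.2 RPKM untreated (adjusted p = 0.694, and 0.039 with the block, limma). Fbln5 was 153 and 142 RPKM against 84.5 and 123 RPKM untreated (adjusted p = 0.304, limma). Neither overlapped between groups.

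With Ctcf and Wapl deleted both fibulins fell. Fbln5 went from 179.8 and 262 RPKM in clones 3 and 4 to 76.1 RPKM in treated clone 4 (log2 fold change -1.50 with SE 0.29, adjusted p = 0.00165, limma). Fbln1 went from 65.6 and 14.6 RPKM, 2 untreated clones that themselves stood far apart, to 6.59 RPKM (log2 fold change -2.09 with SE 0.66, adjusted p = 0.0403, limma). Within clone 4 the Fbln1 fall was -1.04 on the log2 scale (adjusted p = 0.0141, limma with the clone block), and its adjusted p was 0.359 without the untreated library of clone 3 and no block. In wild-type cells Adeno-Cre went with 173 and 128 RPKM of Fbln5 against 125 and 118 RPKM untreated, and 38.9 and 44.2 RPKM of Fbln1 against 40.8 and 60.8 RPKM. Neither passed the test.

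Of the 2 cross-linking enzymes only Lox passed the test in any comparison without the clone block. Lox fell with Ctcf and Wapl deleted, from 1999 and 1418 RPKM in untreated clones 3 and 4 to 306 RPKM in treated clone 4 (log2 fold change -2.45 with SE 0.39, adjusted p = 0.000351, limma). Loxl1 went from 394 and 226 RPKM to 170.0 RPKM in the same libraries and did not pass (log2 fold change -0.81 with SE 0.40, adjusted p = 0.188, limma). After Wapl deletion Lox was lower in both clones, at 813 and 1457 RPKM untreated and 355 and 751 RPKM treated, without overlap (log2 fold change -1.07 with SE 0.32, adjusted p = 0.0926, limma). It passed with the clone block (adjusted p = 0.00451) and without the treated library of clone 2 (adjusted p = 0.023). Loxl1 was higher in both clones, 163 and 282 RPKM untreated and 259 and 312 RPKM treated (adjusted p = 0.658, and 0.0451 with the block, limma).

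In Smc3 floxed cells Lox was 1123, 1776, 1095 and 1908 RPKM untreated and 1602, 1476, 1302 and 1569 RPKM after hydroxytamoxifen, higher in clones 1 and 3 and lower in clones 2 and 4. The log2 fold change was 0.05 with a 95% interval of -0.42 to 0.53. Loxl1 was 199.9, 371, 219 and 377 RPKM untreated and 304, 498, 340.1 and 493 RPKM treated, higher in 4 of 4 clones with overlap (log2 fold change 0.51 with SE 0.23, adjusted p = 0.152, limma; adjusted p = 0.00104 with the clone block). After Adeno-Cre both enzymes were lower in both clones of Ctcf floxed and of wild-type origin. Lox was 2442 and 2030.0 RPKM untreated and 1681 and 1588 RPKM treated in Ctcf floxed cells, and 1705 and 1512 RPKM untreated and 995 and 1004 RPKM treated in wild-type cells. Loxl1 was 531 and 496 RPKM untreated and 391 and 359 RPKM treated in Ctcf floxed cells, and 443 and 421 RPKM untreated and 323 and 321 RPKM treated in wild-type cells. None of these 4 differences passed without the clone block. With it, Loxl1 passed in Ctcf floxed cells (adjusted p = 0.0183) and both enzymes did in wild-type cells (adjusted p = 0.0217 for Lox and 0.0277 for Loxl1, limma).

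Because Adeno-Cre itself went with lower values of several members, each deletion was set against its own control as a difference of differences. For Ctcf and Wapl deletion against Adeno-Cre in wild-type cells, 2 members had a lower change and 0 a higher one, against 1.72% of all genes lower and 2.15% higher. They were Mfap5 (difference -2.61, SE 0.56, adjusted p = 0.0119, limma) and Fbln5 (difference -1.79, SE 0.37, adjusted p = 0.0105, limma). Both genes were higher on average after Adeno-Cre in wild-type cells and lower in the doubly deleted library. For Eln the difference was -3.47 (SE 0.99, adjusted p = 0.057, limma) and for Lox -1.77 (SE 0.51, adjusted p = 0.0583, limma). With the clone block, 5 members passed as lower, Eln (adjusted p = 0.0274), Lox (0.0131), Mfap4 (0.0126), Mfap5 and Fbln5, against 5.76% of all genes lower. Without the treated wild-type clone 2 the count was 0, with adjusted p = 0.0571 for Mfap5 and 0.0525 for Fbln5. Without the untreated library of Ctcf and Wapl floxed clone 3 Mfap5 did not pass (adjusted p = 0.0539). The count was 6 when untreated clone 4 of these cells was left out. Over all genes this difference was called 271 times higher and 217 times lower, and 193 and 262 times after rescaling.

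In the other 3 differences 0 members passed. For Ctcf deletion against Adeno-Cre in wild-type cells, which uses the same wild-type libraries, the background was 0.738% of genes higher and 0.722% lower, and 1 member had an unadjusted p under 0.05, as did 9.04% of all genes. With the clone block Mfap4 had a higher change (adjusted p = 0.0367) and Fbln1 a lower one (adjusted p = 0.0125), while the block called 6.95% of all genes in either direction. For Smc3 deletion against hydroxytamoxifen in Cre-ER cells the background was 0.468% higher and 0.762% lower, and 3 members had an unadjusted p under 0.05, as did 11.5% of all genes. With the block the change was lower for Fbln1 (adjusted p = 0.000849), Fbn2 (0.0278) and Fbn1 (0.0483), against 4.31% of all genes lower. Over all genes that difference was called 59 times higher and 96 times lower, and 36 and 104 times after rescaling. For Wapl deletion against hydroxytamoxifen the background was 0.111% higher and 0.0317% lower, 1 member had an unadjusted p under 0.05 (6.42% of all genes), and the block called 0 members (Lox adjusted p = 0.0517) and 2.48% of all genes. The last 2 differences share the Cre-ER libraries.

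The fall with Ctcf and Wapl deleted rested on 1 treated library in the table of 27, so clone 3 of the second table serves as a further measurement without a test. That table was scaled apart but sums to the same total per length. It holds 2 libraries that the labels describe alike, as clone 3 of Ctcf(fl/fl) Wapl(fl/fl) cells given Adeno-Cre and rested, while the table is named for serum stimulation, which the labels do not mention. They are given here by the labels' laboratory numbers. Library 28014 had Ctcf at 3.17 RPKM and Wapal at 0.902 RPKM, close to the treated clone 4 (3.76 and 1.52 RPKM). Smc3, which is not floxed in these cells, was also lower in library 28014, at 3.83 RPKM against 6.67 RPKM in untreated clone 3. In clone 4 Smc3 was level, at 9.08 RPKM untreated and 8.96 RPKM treated. The library labelled as Adeno-Cre treated with number 28018 had Ctcf at 7.61 RPKM and Wapal at 2.09 RPKM, against 9.26 and 2.72 RPKM in untreated clone 3, so its target genes go against its label.

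In library 28014 all 10 members were below untreated clone 3, as all 10 were in clone 4. Eln was at 22.9 RPKM, 8.29% of the 276 RPKM of untreated clone 3. Mfap5 was at 16.8 RPKM (17.4% of untreated), Lox at 432 RPKM (21.6%), Fbln1 at 15.9 RPKM (24.3%), Fbn2 at 18.4 RPKM (24.99%) and Fbn1 at 63.8 RPKM (32.1%). The smallest differences were those of Mfap4 at 351 RPKM (52.3%), Mfap2 at 141 RPKM (60.8%), Fbln5 at 112 RPKM (62.2%) and Loxl1 at 317 RPKM (80.3%). Elastin was thus the most reduced member in both clones and Loxl1 among the least.

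In the library with number 28018 most members stayed near untreated clone 3, with 8 lower and 2 higher. Eln was at 264 RPKM (95.4% of untreated), Lox at 2401 RPKM (120.1%) and Loxl1 at 448 RPKM (114%). The exceptions were Fbn2 at 20.1 RPKM (27.3%) and Fbln5 at 108 RPKM (59.9%), which were close to their levels in library 28014.

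**Figure D3:**
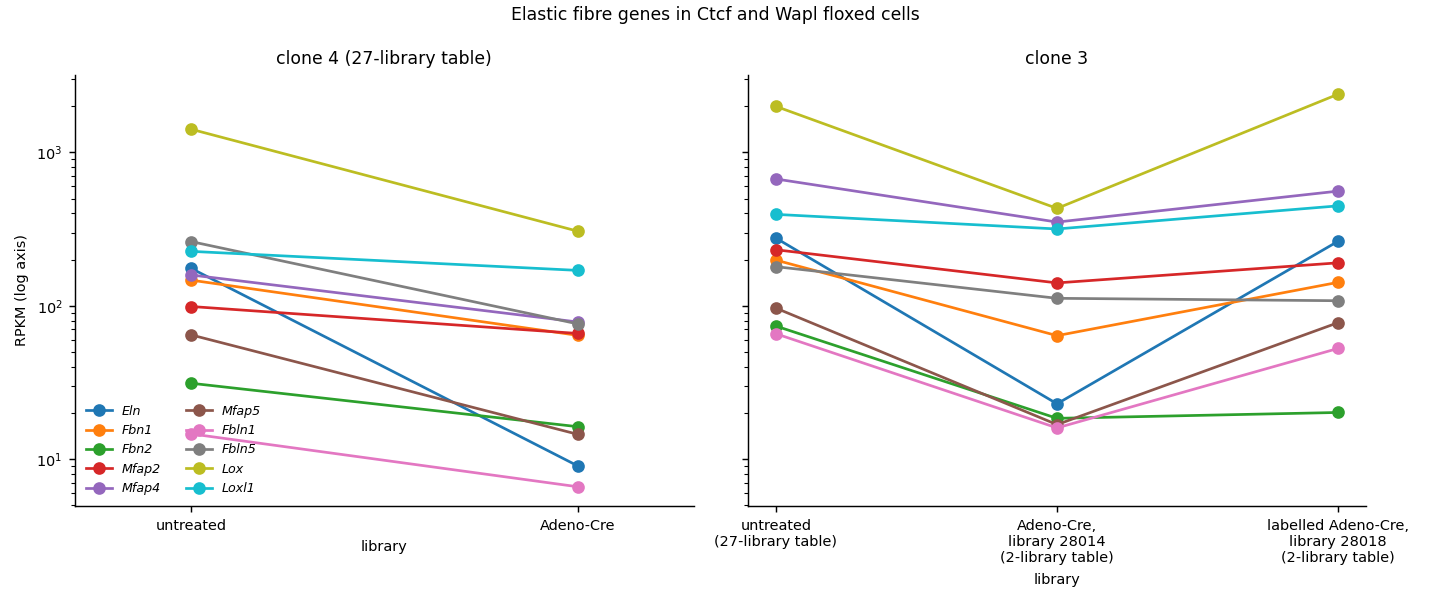
RPKM (log axis) of the 10 elastic fibre genes in Ctcf and Wapl floxed cells, clone 4 on the left and clone 3 on the right, with 1 library at each position and lines joining the values of a gene. Eln ends at 9.02 RPKM in clone 4 and at 22.9 RPKM in library 28014 of clone 3, and stands at 264 RPKM in library 28018.

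Nascent RNA of Ctcf and Wapl floxed cells was measured in 4 GRO-seq columns, 2 of which pool 2 libraries, and there are no replicates to test. Values are TPM set to the same total, and a difference past 2-fold on log2(TPM + 1) is counted as a description. A value is thus a share of its column. A change in the whole amount of nascent RNA, after Adeno-Cre or with DRB, does not show on this scale. After Adeno-Cre 7 of 10 members were past 2-fold lower and 0 higher, against 21.7% of 16122 genes lower and 4.35% higher. Lox went from 265 to 34.3 TPM, Fbln5 from 40.7 to 4.18 TPM and Eln from 6.78 to 0.662 TPM, which left 12.95%, 10.3% and 9.77% of the untreated value. Fbn1 went from 22.9 to 4.71 TPM, Fbn2 from 16.9 to 4.04 TPM, Mfap5 from 9.63 to 1.90 TPM and Loxl1 from 25.5 to 12.2 TPM. These 7 were the members counted as lower.

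The other 3 members were not past 2-fold on this scale. Fbln1 went from 1.80 to 0.521 TPM, which was short of 2-fold with 1 TPM added (log2 ratio -0.88) although the TPM itself was 28.9% of the untreated value, against 47.9% for Loxl1. Mfap4 was at 8.31 and 7.86 TPM. Mfap2 was at 5.54 and 8.98 TPM and was the only member with a higher TPM after Adeno-Cre (log2 ratio 0.61). The mRNA of both was lower in treated than in untreated clone 4, with log2 differences of -0.58 for Mfap2 and -1.01 for Mfap4. The nascent RNA came from clones 1 and 2. The median log2 ratio was -1.85 over the members and -0.56 over all genes. After median-of-ratios rescaling, which takes the median of all genes to -0.01, 6 members were lower and Mfap2 was higher, against 1908 genes higher and 763 lower (701 and 3494 before). GRO-seq of Adeno-Cre in wild-type cells had no column of its own, so the part of Adeno-Cre in these ratios was not tested.

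DRB, which blocks the release of paused polymerase into elongation, was added for 3.5 h to cells given Adeno-Cre. The Adeno-Cre column pools clones 1 and 2. The DRB column and the column after its removal are 1 library each, with no clone named. DRB therefore cannot be told apart from a difference between cultures. Of the 8 members with at least 1 TPM in either column, 7 were past 2-fold lower with DRB and 0 higher, against 29.6% of genes lower and 11.3% higher. Lox went from 34.3 to 10.99 TPM, Loxl1 from 12.2 to 3.56 TPM, Fbn1 from 4.71 to 1.18 TPM, Fbn2 from 4.04 to 0.337 TPM and Mfap4 from 7.86 to 1.33 TPM. Fbln5 and Mfap2 were just past 2-fold (log2 ratios -1.05 and -1.03) and Mfap5 just short of it (-0.99). Eln and Fbln1 were under 1 TPM in both columns and were not counted. After rescaling only Fbn2 and Mfap4 of the 8 were past 2-fold, with 3470 genes higher and 1733 lower (1554 and 4087 before). The drop of the other 5 members counted before was thus not past 2-fold relative to the median gene.

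After 1 d without DRB, 4 of the 8 members were past 2-fold higher than with DRB and 0 lower, against 23.4% of genes higher and 5.98% lower. Lox reached 42.0 TPM, Loxl1 13.03 TPM, Fbn1 4.93 TPM and Fbn2 3.05 TPM. In the pooled Adeno-Cre column these 4 were at 34.3, 12.2, 4.71 and 4.04 TPM. Both DRB comparisons use the same DRB column. Mfap4 reached 2.95 TPM, Fbln5 2.93 TPM and Mfap5 1.12 TPM, and Mfap2 stayed at 3.77 TPM (log2 ratio -0.04). After rescaling 4 members were past 2-fold higher, with 1435 genes higher and 1842 lower (2895 and 740 before). Eln was at 0.177 TPM and Fbln1 at 0.201 TPM, both still under 1.

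**Figure D4:**
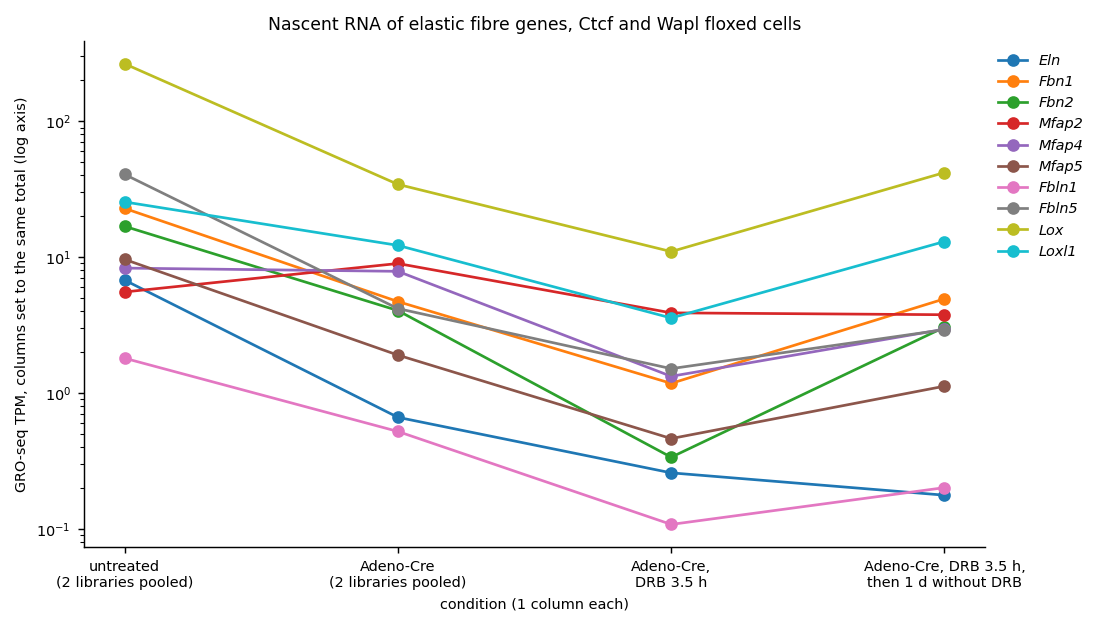
GRO-seq TPM (log axis, columns set to the same total) of the 10 elastic fibre genes in 4 conditions of Ctcf and Wapl floxed cells, 1 column per condition, with lines joining the values of a gene. Lox falls from 265 to 34.3 TPM after Adeno-Cre while Mfap2 goes from 5.54 to 8.98 TPM.

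Other genes of the elastic fibre pathway were counted by role, 42 measured in all. With Ctcf and Wapl deleted, 5 fell and 1 rose, against 5.34% and 10.5% of all genes. Of 17 microfibril and assembly partners 3 fell, namely Thsd4, which promotes fibrillin-1 microfibrils (7.31 RPKM mean untreated, 0.257 treated; log2 fold change -2.70, SE 0.60, adjusted p = 0.00505, limma), the fibulin gene Fbln7 (-2.01, SE 0.65, adjusted p = 0.0434, limma) and the small proteoglycan gene Bgn (2919 RPKM mean untreated, 1082 treated; -1.43, SE 0.28, adjusted p = 0.00165, limma). Fbln7 did not pass without the untreated library of clone 3 or of clone 4, and 2 assembly partners passed without the former and 7 without the latter. Of 8 further cross-linking and processing genes, Loxl4, another lysyl oxidase family member, rose from 4.71 to 26.2 RPKM (2.33, SE 0.32, adjusted p = 7.04e-05, limma). Of 9 receptor genes the integrin gene Itga8 fell from 18.1 to 0.641 RPKM (-3.51, SE 0.53, adjusted p = 0.000214, limma). Of 5 measured elastin-degrading enzymes Mmp2, a gelatinase, fell from 680.0 to 247 RPKM (-1.43, SE 0.30, adjusted p = 0.00338, limma). Of the 3 TGF-beta ligands that microfibrils store in latent form, 0 passed in any comparison fitted over all libraries without the clone block. Against Adeno-Cre in wild-type cells, 2 of the 42 passed, Loxl4 with a higher change (difference 1.65, SE 0.41, adjusted p = 0.0294, limma) and Itga8 with a lower one (difference -3.05, SE 0.69, adjusted p = 0.0167, limma). In nascent RNA of the same genotype, 21.7% of all genes were past 2-fold lower and 4.35% higher. The counts lower were 8 of 16 assembly partners, 3 of 8 cross-linking and processing genes, 3 of 9 receptors, 2 of 6 degrading enzymes and 2 of 3 TGF-beta ligands, and 1 cross-linking and processing gene was higher.

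After Smc3 deletion 6 of the 42 rose and 5 fell, against 9.37% and 5.6% of all genes. As a difference from hydroxytamoxifen in Cre-ER cells 0 of the 42 passed. The falls were in assembly partners and processing: Emilin2, an elastin-associated glycoprotein gene (-1.74, SE 0.34, adjusted p = 0.00207, limma), Thsd4 (-1.73, SE 0.35, adjusted p = 0.0024, limma), Ltbp1, which tethers latent TGF-beta to microfibrils (-1.55, SE 0.36, adjusted p = 0.00657, limma), and the procollagen protease gene Tll1 (-1.12, SE 0.28, adjusted p = 0.00986, limma) were 4 of the 5. The fifth was the proteoglycan gene Vcan (-1.01, SE 0.30, adjusted p = 0.0295, limma), named after its value was seen. Of the rises, Emilin1 had a log2 fold change of 0.75, SE 0.16, adjusted p = 0.00343 and Loxl2, a lysyl oxidase family member, one of 0.82, SE 0.16, adjusted p = 0.00214 (limma). Atp7a, the copper pump that supplies lysyl oxidases, rose by 0.55, SE 0.14, adjusted p = 0.0105 (limma). The integrin gene Itgav rose by 0.75, SE 0.21, adjusted p = 0.0173, the sialidase gene Neu1 of the elastin receptor by 0.44, SE 0.13, adjusted p = 0.0269 and the cathepsin gene Ctsl by 0.60, SE 0.20, adjusted p = 0.0463 on the log2 scale (limma). Single libraries decided some of these calls. When each library was left out in turn, between 4 and 7 assembly partners, 3 and 4 cross-linking and processing genes, 0 and 3 receptors, 0 and 1 degrading enzymes and 0 and 1 TGF-beta ligands passed.

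After Ctcf deletion 2 of the 42 rose and 3 fell, against 5.04% and 2.63% of all genes, and as a difference from Adeno-Cre in wild-type cells 0 of the 42 passed. Ltbp2, which binds microfibrils, rose from 195 to 509.6 RPKM (1.405, SE 0.36, adjusted p = 0.0209, limma), and Loxl4 rose from 3.27 to 7.18 RPKM (0.93, SE 0.26, adjusted p = 0.0352, limma). Loxl4 was also higher in both wild-type clones after Adeno-Cre, at 4.77 RPKM mean untreated and 8.22 treated (0.68, adjusted p = 0.166, limma), and the difference between these changes was 0.25 (adjusted p = 0.99, limma). Thsd4 fell from 8.68 to 0.973 RPKM (-2.31, SE 0.49, adjusted p = 0.00578, limma). Itga8 (-1.79, SE 0.44, adjusted p = 0.015, limma) and Mmp14, a membrane-bound protease gene (-0.60, SE 0.14, adjusted p = 0.0107, limma), also fell. When single libraries were left out, between 0 and 2 assembly partners, 0 cross-linking genes, 0 or 1 receptors and 0 to 2 degrading enzymes passed. After Wapl deletion and in both controls 0 of the 42 passed. With the clone block 11 of the 42 passed after Ctcf deletion (25% of all genes), 26 after Smc3 deletion (36.6%) and 9 after Wapl deletion (14.6%). In the controls 11 passed after Adeno-Cre in wild-type cells (23%) and 0 in Cre-ER cells (0%). With Ctcf and Wapl deleted the block leaves 1 treated and 1 untreated library.

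The labelled cell type was checked against markers of fibroblasts and of other cells that make or accompany elastic fibres. All 8 fibroblast markers were present, with summed levels of 6583 to 16577 RPKM. Pdgfra went down to 1.33 RPKM and Lum to 0.966 RPKM at their lowest. The lowest sum belonged to the treated Ctcf and Wapl floxed clone 4 (7268 and 12091 RPKM in the untreated clones), where the median log2 fold change of the 8 was -1.14. There 3 of 8 fibroblast markers fell, beside the 7 members. After Smc3 deletion 1 of 8 fell. For these and the marker counts below, 5.34% of all genes were lower and 10.5% higher with Ctcf and Wapl deleted. The shares were 5.6% and 9.37% after Smc3 deletion, and 0.762% lower against the Cre-ER control. Higher were 1.5% after Wapl deletion, 5.04% after Ctcf deletion and 2.7% after Adeno-Cre in wild-type cells. Smooth muscle cells also make elastin, and their 6 markers summed to 4065 and 5376 RPKM in untreated and 6033 RPKM in treated Ctcf and Wapl floxed cells. In Smc3 floxed cells these sums were 329 to 938 RPKM untreated and 550 to 2837 RPKM treated, with 1 of 6 higher. The 6 macrophage markers summed to 1598 and 2272 RPKM in untreated Wapl floxed cells and to 447 and 1375 RPKM after hydroxytamoxifen, and to 25.7 to 1023 RPKM and 18.4 to 157 RPKM in Smc3 floxed cells before and after. None of the 6 passed the test in either comparison. The sums were at most 60.2 RPKM for the 5 chondrocyte, 51.2 RPKM for the 6 endothelial and 35.8 RPKM for the 4 epithelial markers. Acan, Matn1, Pecam1, Cdh1, Epcam, Myod1 and Myog reached 0 in some libraries. Other markers of these types stayed above 0 in every library. Among them were Flt1 (up to 46.7 RPKM), Comp (up to 50.2 RPKM), Col2a1 (up to 19.9 RPKM) and Krt18 (up to 27.3 RPKM). Sox9 ranged from 1.88 to 14.1 RPKM. Endothelial sums were 12.3 to 21.9 RPKM in untreated and 1.41 to 10.9 RPKM in treated Smc3 floxed cells, with 2 of 5 tested markers lower (1 also against the Cre-ER control). They were 17.9 and 39.3 RPKM in untreated and 10.03 RPKM in treated Ctcf and Wapl floxed cells, with 1 marker higher and 1 lower, and 1 was higher after Adeno-Cre in wild-type cells. Of 3 tested epithelial markers 1 was higher after Wapl deletion. In the treated Ctcf and Wapl floxed clone 4 the 4 skeletal muscle markers summed to 377 RPKM, against 16.3 and 28.4 RPKM untreated. This sum was almost all Acta1, at up to 376 RPKM, while Myod1, Myog and Myh3 stayed at or below 0.695 RPKM in every library. Acta1, the 1 of these 4 that was tested, was higher in that comparison and after Ctcf deletion. The part of these cell types in the members' differences was not tested.

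Across the 27 libraries the members fell into partly separate patterns on the log2 scale. These correlations describe libraries that share clones, depth and treatment, and carry no test. Eln went most closely with Lox among the members (Pearson r = 0.84), Fbn1 with Fbn2 (0.77), Mfap2 with Mfap4 (0.73) and Lox with Loxl1 (0.70), whereas Fbln1 and Fbln5 had the lowest value (-0.44). Of all other named genes, the closest to Eln was Ephb3 (r = 0.88), to Fbn1 Arhgap20 (0.85), to Fbn2 Ntn1 (0.86), to Mfap2 Zfp521 (0.92) and to Mfap4 Pcgf2 (0.89). The closest to Mfap5 was Eogt (0.80), to Fbln1 Robo2 (0.89), to Fbln5 Lmo7 (0.80), to Lox Fst (0.87) and to Loxl1 Pde4b (0.86). The runners-up were Marveld1 for Eln (0.87), Ctdsp2 for Fbn1 (0.85), Dock9 for Fbn2 (0.85), Ephb4 for Mfap2 (0.89), Adam33 for Mfap4 (0.88), Iah1 for Mfap5 (0.79), Arhgap20 for Fbln1 (0.89), Wisp1 for Fbln5 (0.78), Tmem119 for Lox (0.86) and Hr for Loxl1 (0.85).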

How the data were processed

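RNA-seq came as RPKM, values the authors scaled to gene length and library size, per the file headers, in tables of 27 and 2 libraries, and GRO-seq as deposited TPM columns that sum to 200000 (2 libraries pooled) or 100000 (1 library), per the file headers. The latter were multiplied by 2. Per the submitters' processing notes, the build was mm9 and the tools HTSeq, bedtools, Bowtie 0.12.5, TopHat 1.3.1 and 1.4.1, and MACS 1.4.2, without roles. Strand use in counting is not given in the sources used here. Depth was recovered from RPKM steps, which gave whole reads within 0.02 for 18155 of 18155 genes. The GRO-seq depth is unknown.

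Tests used limma 3.58.1 under R 4.3.3 (trend and robust empirical Bayes) on log2(RPKM + 1), a scale that understates changes of low genes. The model had 12 group means, 27 libraries and 15 residual degrees of freedom. P-values were adjusted (Benjamini-Hochberg) over all 12604 genes tested, two-sided, at 0.05. The script was tested on simulated data. Alternatives covered the pseudocount, filters, scaling, gene length, empirical Bayes options, the libraries fitted, single libraries left out, and the clone as a block. The labels give treated and untreated libraries of a clone, whose deviations from group means correlated at 0.47 to 0.76 (Cre-ER cells -0.20). Replicates correlated at 0.948 to 0.991.

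All 10 members are named. Of each pathway list, at most the 3 highest and 3 lowest called genes that moved alike in every clone are named. The members and lists were chosen with earlier results of these data known. The number of value columns left unused was 0.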

Additional observations from a re-analysis of the deposited data

Results flagged for a closer look

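In 2 members the change after Adeno-Cre differed between Ctcf and Wapl floxed and wild-type cells by a test of the difference itself. In the floxed cells this change holds both the virus and the deletion, and rests on 1 treated library. The change of Mfap5 with Ctcf and Wapl deleted differed from its change after Adeno-Cre in wild-type cells by -2.61 on the log2 scale (SE 0.56, adjusted p = 0.0119, limma). It was lower in 1 of 1 treated clone of the floxed cells and higher in 2 of 2 wild-type clones. The change of Fbln5 differed by -1.79 (SE 0.37, adjusted p = 0.0105, limma), again with 1 of 1 clone lower and 2 of 2 wild-type clones higher. Over the alternatives the adjusted p of both went above 0.05 when only the libraries of the compared groups were fitted (0.11 for Mfap5 and 0.166 for Fbln5) and without the treated wild-type clone 2 (0.0571 and 0.0525). That of Mfap5 was also above it without the untreated Ctcf and Wapl clone 3 (0.0539). In library 28018 of clone 3, whose target genes are near untreated levels, Fbln5 was at 59.9% of untreated, against 62.2% in library 28014, and Mfap5 at 80.4% against 17.4%. Among the 2 groups of 4 libraries, each tested for 10 genes, 0 of the 20 sets of values held a library far enough from the others to be singled out; the nearest was Mfap5 in the treated Smc3 floxed clone 1, at 139 RPKM.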

How the results depend on the processing

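With the clone as a block, the number of members called was 5 after Ctcf deletion, 9 after Smc3 deletion, 4 after Wapl deletion and 3 after Adeno-Cre in wild-type cells, and the block also called more of all genes. As differences from the control, the block called 2 for Ctcf deletion and 3 for Smc3 deletion (3 also with the Cre-ER clone numbers crossed, a pairing tried after seeing the data). For Ctcf and Wapl deletion the count moved too, but the block leaves 1 treated and 1 untreated library there. Apart from that deletion, the block changed no call of a member other than those given with the results. With only the libraries of the groups compared, the count was 2 after Smc3 deletion, 0 with Ctcf and Wapl deleted and 0 for that deletion against its control, with fewer samples to set the spread. Leaving out single libraries gave 2 to 4 members after Smc3 deletion, 0 to 1 after Wapl deletion, 5 to 9 with Ctcf and Wapl deleted, and, against the controls, 0 to 1 for Smc3 deletion and 0 to 6 for Ctcf and Wapl deletion. Besides those named with the results, the libraries that moved a count over 1.5 times were untreated Smc3 clone 2 (2 called), treated Smc3 clones 3 and 4 (3 each), treated Smc3 clone 1 (1 called against its control) and untreated Ctcf and Wapl clone 3 (1 against its control). In GRO-seq, a minimum of 5 TPM left 4 members counted with DRB and 2 after its removal, since fewer members were tested, and rescaling left 2 with DRB. The cause of the other shifts was not tested. The remaining 153 alternative values of these counts stayed within 1.5 times of the value reported, and none of the results changed sign past its threshold. With 2 libraries in most groups, the spread is set mainly by the fit over all groups.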
